A study of Mus musculus with 2 samples.

Results

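The L1, NCAM and contactin adhesion molecules are neuronal cell surface proteins, most of them of the immunoglobulin superfamily, through which growing axons and migrating neurons hold on to each other and to glia. The group described here holds 10 genes, namely the L1 family members L1cam, Chl1, Nrcam and Nfasc, the neural cell adhesion molecules Ncam1 and Ncam2, the contactins Cntn1 and Cntn2, and the contactin-associated genes Cntnap1 and Cntnap2. They were taken by symbol, with every probe set that the platform annotation gives to exactly 1 of them, which made 34 of the 34945 probe sets naming 1 gene and 10 of the 18193 genes so named. No probe set naming several genes included a member.

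The compared material was cerebral cortex of newborn mice. The double knockout pool carried MRTF-A-/- together with floxed MRTF-B (MRTF-BF/F) and GFAP-Cre, and the control pool carried MRTFA-/-;MRTF-BFlox/Flox without Cre, so both pools are labelled null for MRTF-A. MRTF-A and MRTF-B, encoded by Mrtfa and Mrtfb, are coactivators of the transcription factor SRF, and GFAP-Cre expresses the Cre recombinase from the promoter of an astrocyte and radial glia filament gene, so cells without that promoter's activity in their history keep the floxed allele. Both pools are labelled postnatal day 0, apart from a description of the double knockout sample that gives postnatal day 1. Each pool combined RNA of 3 animals and was read on 1 Affymetrix array.

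With 1 array per group the differences below have no replicate check and were not tested. Pooling hides variation among the animals of a group. In RNA of whole tissue, fewer cells of a type and less RNA per cell cannot be told apart.

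L1 family proteins have an extracellular part that binds the same or other adhesion molecules on a neighbouring cell and a short tail that binds ankyrin, which ties them to spectrin and actin beneath the membrane. NCAM proteins bind in a similar way and carry polysialic acid in the young brain, a sugar that weakens adhesion. Contactins have no tail of their own and sit in the membrane by a lipid anchor, and the contactin-associated proteins pair with them at the borders of the nodes of Ranvier once axons become myelinated.

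The values are MAS5 probe set signals on a linear scale. Signals given below are as deposited. Each difference is the double knockout pool's log2 signal less that of the control pool, after centring by 0.0037 log2, and signals under a floor of 178.9, the median of all non-control signals, were set to it first. A probe set or gene is called readable where its signal reached the floor in both pools, and measured where it did so in at least 1 pool. The brightness of a probe set also depends on its probes, so signals of different probe sets set no order between genes.

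Across the arrays the log2 signals of the 11013 readable genes had a Pearson r of 0.990 across genes, which are not independent replicates. Mrtfb was lower in the double knockout pool, at 2481.8 against 3358.9 in the control pool on its brightest probe set (-0.44). Its probe sets averaged -0.33 ± 0.15 (SD, 2 probe sets). Mrtfa, labelled null in both pools, read 262.4 in the double knockout pool and 601.6 in the control pool (-1.20), so the pools differed at a gene whose label they share. The sources used here do not say whether any of these probe sets lies in a deleted part. Markers of the labelled tissue were present: all 10 neuron markers and 6 of 8 cortical neuron markers were measured, and Tbr1, a transcription factor of cortical excitatory neurons, read 1720.3 in the double knockout pool and 1553.3 in the control pool.

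The adhesion genes differed little between the pools. Of the 9 measured members 0 passed 1.5-fold on the brightest probe set, where 1.14% of the 11636 measured genes did, and 0 passed 2-fold, where 0.0773% did. Their differences lay between -0.14 and 0.32, with a median of 0.046 against 0.011 over all measured genes. On this measure 6 members were higher and 3 lower in the double knockout pool, where 52.9% of all measured genes were higher. All 9 were readable, and of the 11013 readable genes 54.3% were higher, with a median of 0.016. With the mean over each gene's measured probe sets, however, 3 members were higher and 6 lower. Their median was then -0.035, and that of all measured genes was -0.0063. The direction of the group as a whole therefore depended on which probe sets were read.

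Of the 34 member probe sets 25 were readable, 1 reached the floor in the control pool alone and 8 in neither pool. Of the 25, 15 were higher and 10 lower in the double knockout pool, a share of 60.0% set beside 50.9% of the 18877 readable probe sets naming 1 gene. A single member probe set, of Chl1, passed 1.5-fold, where 1.26% of all such probe sets did. At that background share, 1 case among 25 probe sets is not read as a result about the group.

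**Figure D1:**
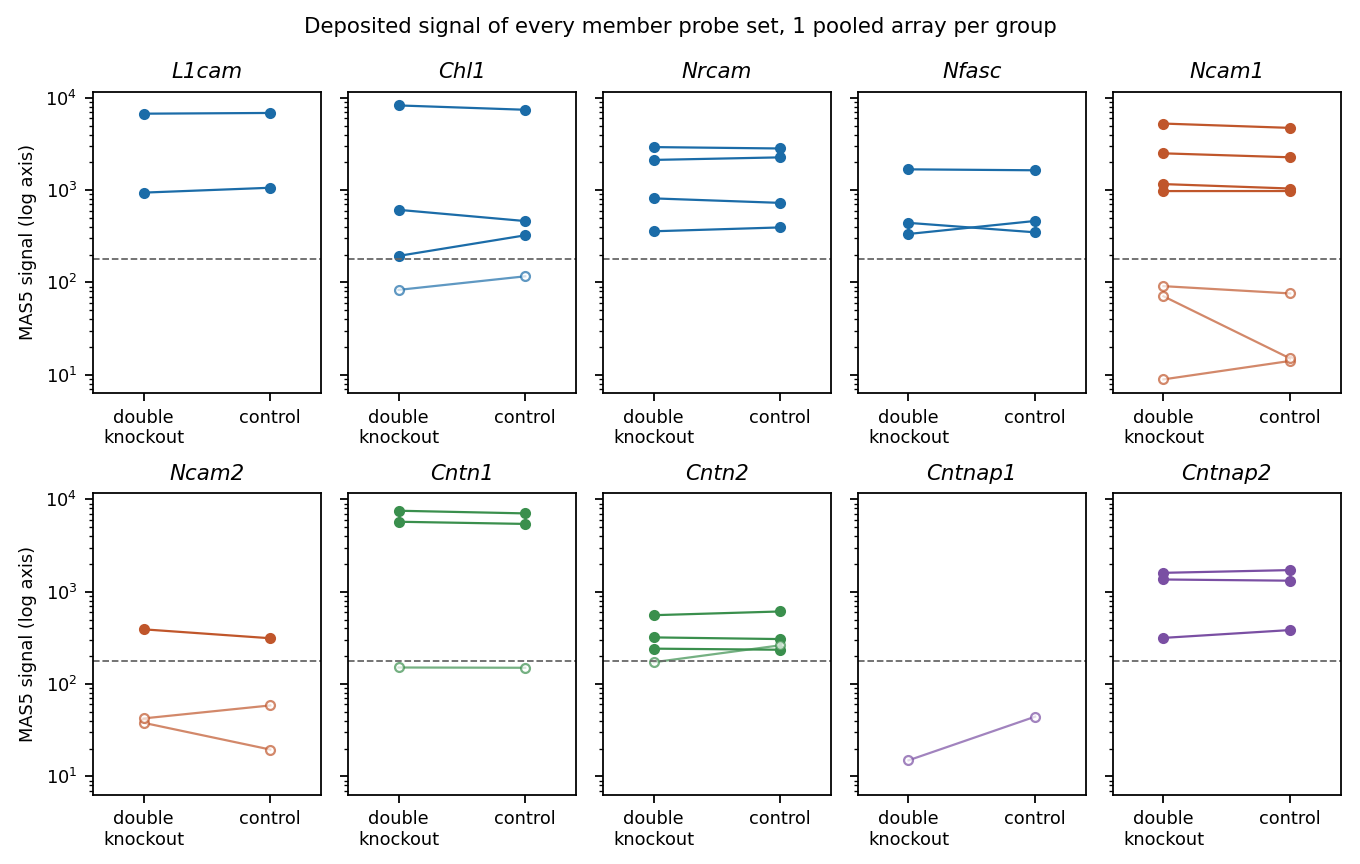
Deposited MAS5 signal (log axis) of all 34 member probe sets, each joined by a line between the double knockout pool at the left and the control pool at the right, 1 array each. Filled points belong to readable probe sets, which reach the floor (dashed line, 178.9) in both pools, and open points to the other 9. The bright lines are close to level, and the steepest ones lie near or under the floor. Some dimmer Chl1 and Nfasc lines above the floor slope as well.

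Among the L1 family, L1cam was lower by small amounts on both of its probe sets. L1cam is the founding member of the family, carried on growing axons, and its loss in people causes hydrocephalus and absent corpus callosum. Its probe set 1450435_at read 6733.9 in the double knockout pool and 6855.2 in the control pool, and 1421958_at read 939.5 in the double knockout pool and 1060.8 in the control pool. The differences were -0.029 and -0.18, with a mean of -0.10 ± 0.11 (SD, 2 probe sets). Both fall well inside the central 95% of all probe sets, which ran from -0.45 to 0.36.

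Chl1, the close homologue of L1, guides apical dendrites and thalamic axons, and its 3 readable probe sets went apart. The brightest, 1435190_at, read 8271.7 in the double knockout pool and 7423.3 in the control pool, a difference of 0.15. The probe set 1417795_at read 611.6 in the double knockout pool and 462.2 in the control pool, 1.32-fold higher in the double knockout. In the opposite direction 1443713_at read 193.7 in the double knockout pool and 323.9 in the control pool, 1.68-fold lower, and its double knockout signal lay just above the floor. The mean over the 3 was -0.064 ± 0.60 (SD, 3 probe sets), against a pooled SD between probe sets of 0.181 over the 4858 genes that have 2 or more readable ones. The 3 probe sets spanned 1.15 log2, and 0.258% of the 1162 genes with 3 such probe sets spanned more. The remaining probe set stayed under the floor, at 83.0 in the double knockout pool and 116.5 in the control pool.

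Nrcam, which joins ankyrin at nodes of Ranvier and serves as a semaphorin co-receptor component on axons, was near 0 on the whole. Its brightest probe set, 1434709_at, read 2925.5 in the double knockout pool and 2825.8 in the control pool, and the next, 1430583_at, read 2124.0 in the double knockout pool and 2264.3 in the control pool. The 4 differences ran from -0.14 to 0.16, with 2 above and 2 below 0 and a mean of -0.0086 ± 0.14 (SD, 4 probe sets). Of the 455 genes with 4 such probe sets, 51.0% spanned more than Nrcam did, so its disagreement was that of an ordinary gene.

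Nfasc encodes neurofascin, made as a neuronal form that gathers channels at the axon initial segment and as a glial form at paranodes. Its brightest probe set, 1436205_at, read 1679.3 in the double knockout pool and 1640.6 in the control pool, a difference of 0.030 that turned to -0.0037 after quantile normalization and -0.0011 after loess centring. The dimmer ones went apart: 1456068_at read 441.8 in the double knockout pool and 349.0 in the control pool (0.34), while 1459357_at read 334.9 in the double knockout pool and 463.5 in the control pool (-0.47). The mean was -0.035 ± 0.41 (SD, 3 probe sets), and 1.38% of the 1162 genes with 3 such probe sets spanned more than its 0.81 log2. The sources used here do not say which Nfasc form each probe set reads.

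Both NCAM genes were higher in the double knockout pool on their brightest probe sets. Ncam1 encodes the carrier of polysialic acid in the developing brain, and 3 of its probe sets agreed closely. The probe set 1426864_a_at read 5261.5 in the double knockout pool and 4723.1 in the control pool. Likewise 1426865_a_at read 2503.5 in the double knockout pool and 2268.0 in the control pool. The third, 1450437_a_at, read 1162.4 in the double knockout pool and 1041.0 in the control pool. These differences were 0.15, 0.14 and 0.16, which is 1.10-fold to 1.11-fold, while 1439556_at differed by -0.0056, at 976.3 in the double knockout pool and 977.6 in the control pool. The mean was 0.11 ± 0.08 (SD, 4 probe sets). The 3 agreeing probe sets share the suffix that marks probes common to several transcripts of a gene, and they may read the same stretch, so they are not separate support. Of 11013 genes, 33.7% had a larger absolute difference than Ncam1. Another 3 Ncam1 probe sets stayed at or under 91.1 on both arrays.

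Ncam2, best known from olfactory axons, had the largest difference of the 9 measured members on the brightest probe set. Its only readable probe set, 1425301_at, read 391.4 in the double knockout pool and 313.3 in the control pool, 1.25-fold higher, and 8.59% of 11013 genes had a larger absolute difference. The other 2 probe sets stayed at or under 58.6, so the value rests on 1 probe set.

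**Figure D2:**
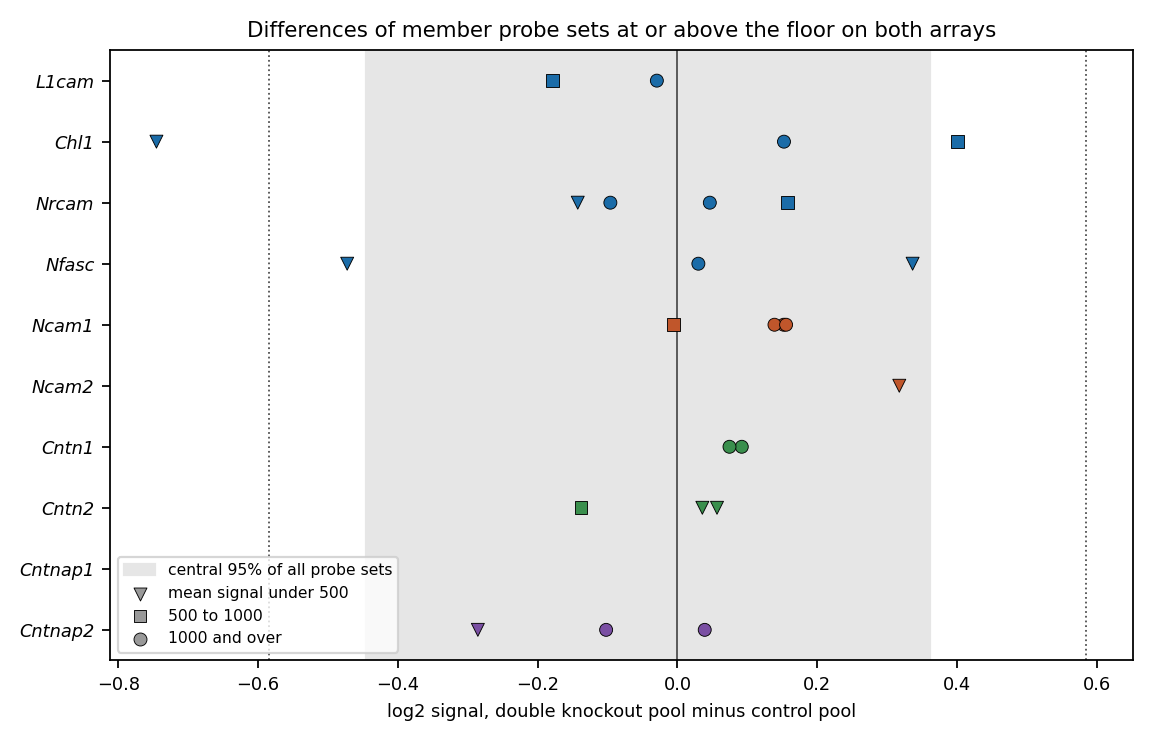
Log2 difference, double knockout pool minus control pool, of the 25 readable member probe sets, 1 row per gene. The grey band is the central 95% of all probe sets (-0.45 to 0.36), dotted lines mark 1.5-fold, and point shapes give the mean signal. Chl1 and Nfasc hold the widest rows, Cntn1 and the bright Ncam1 probe sets the tightest, and Cntnap1 has no point.

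Cntn1 was the member whose probe sets agreed best. Contactin 1 is a ligand of tenascin-R and of the receptor phosphatase Ptprz1 and later pairs with Cntnap1 at paranodes. Its probe set 1452981_at read 7541.0 in the double knockout pool and 7056.8 in the control pool, and 1449563_at read 5730.0 in the double knockout pool and 5427.7 in the control pool. Both were higher, by 0.092 and 0.074, averaging 0.083 ± 0.01 (SD, 2 probe sets), and 53.8% of 11013 genes had a larger absolute difference than its brightest probe set. The remaining probe set stayed under the floor, at 151.0 in the double knockout pool and 150.0 in the control pool.

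Since SRF, the partner of the deleted coactivators, binds a 10-base element called the CArG box, the promoter windows of the members were searched for it. RefSeq windows on GRCm38.p6, each from 250 bases before to 50 bases after a transcript start, were at hand for 8 members in 13 windows. The element reads the same on both strands and was searched without mismatch. It was found in 1 of the 13 windows, that of the most upstream Cntn1 start, and in 1.63% of all 32851 windows. The 250 bases before that start, chr15:92050915-92051164 on the plus strand, are shown because they hold the only match among the members, with the CArG box in capitals.
Cntn1: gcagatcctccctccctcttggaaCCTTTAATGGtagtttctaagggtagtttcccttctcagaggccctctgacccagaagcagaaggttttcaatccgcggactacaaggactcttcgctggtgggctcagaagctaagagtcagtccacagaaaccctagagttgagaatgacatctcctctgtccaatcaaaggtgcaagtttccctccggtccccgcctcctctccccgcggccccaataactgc
The match lies 226 to 217 bases before the start. It is a description of these letters and not a binding site, and the signals of Cntn1, higher by 1.07-fold and 1.05-fold in the double knockout pool, are the only measurement of that gene here. The GC box GGCGGG, searched on both strands, was in 8 of the 13 windows, among them that of the same Cntn1 start, and in 35.3% of all windows. The G and C content of the member windows ran from 34.7% to 75.7%, with a median of 55.3% against 52.7% over all windows.

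Cntn2, also called TAG-1, marks outgrowing axons of early projection neurons and is later made by oligodendrocytes, and it lay close to 0 on its readable probe sets. Its brightest probe set, 1435165_at, read 556.7 in the double knockout pool and 611.0 in the control pool, a difference of -0.14. The next, 1435166_at, read 320.0 in the double knockout pool and 306.9 in the control pool, and 1456962_at read 241.7 in the double knockout pool and 235.2 in the control pool, differences of 0.057 and 0.036. The mean was -0.015 ± 0.11 (SD, 3 probe sets). The probe set 1450523_at was under the floor in the double knockout pool alone, at 172.1 against 262.6 in the control pool, at least 1.47-fold lower. It entered no count of readable probe sets.

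Of the contactin-associated genes, Cntnap1 was not measurable. It encodes the paranodal partner of contactin 1, and its only probe set read 14.9 in the double knockout pool and 44.3 in the control pool, both far under the floor, so no difference is given. Cntnap2, which clusters potassium channels beside paranodes and is linked in people to epilepsy and autism, was slightly lower on average. Its probe set 1422798_at read 1601.9 in the double knockout pool and 1714.9 in the control pool, and 1437782_at read 1356.7 in the double knockout pool and 1317.1 in the control pool. The dimmest, 1450758_at, read 316.1 in the double knockout pool and 384.3 in the control pool. The 3 differences were -0.10, 0.039 and -0.29, with a mean of -0.12 ± 0.16 (SD, 3 probe sets).

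Other cell markers moved between the same pools, on lists chosen with earlier results of these data known. Of all 11636 measured genes 5480 were lower in the double knockout pool and 52.9% were higher. Cntnap2 is also expressed in the striatum, whose markers were lower in the double knockout pool in 8 of 8 measured cases of 10 listed, with summed signals of 10349.6 in the double knockout pool and 12211.2 in the control pool, none listed at 0, and Drd2, Six3 and Penk at -0.42, -0.41 and -0.39. Nfasc and Cntn2 are also expressed by oligodendrocytes, whose markers were lower in 7 of 8 measured cases of 10 listed, with summed signals of 12774.9 in the double knockout pool and 17087.9 in the control pool. Of those, Mobp differed by -0.97, Mag by -0.71 and Ugt8a by -0.54, while Mog stayed under the floor on both arrays. The part of either tissue in the Cntnap2, Nfasc and Cntn2 values was not tested. The neuron markers, of cells that carry most of the members, had a median of 0.024, with 6 of 10 higher. Nefm, a neurofilament subunit, differed by -0.36. Rbfox3 differed by 0.14 on its brightest probe set, while its probe sets averaged -0.097 ± 0.22 (SD, 3 probe sets). Elavl3 differed by 0.12, averaging 0.017 ± 0.09 (SD, 3 probe sets).

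The remaining marker lists had medians of 0.11 over 6 cortical neuron genes, -0.047 over 5 oligodendrocyte precursor genes, 0.10 over 7 astrocyte genes and -0.18 over 7 radial glia genes. They were 0.28 over 8 microglia genes, 0.37 over 8 genes of the meninges, -0.0060 over 6 endothelial genes and -0.33 over 2 measured thalamic genes. Past 1.5-fold in these lists were Gfap, the astrocyte filament, at 0.59, and Mrc1, a macrophage receptor, at 0.68. So were Igf2 and Aldh1a2 of the meninges, at 0.59 and 0.68, and Tcf7l2 of the thalamus list at -0.60. Tcf7l2 was dim, at 222.1 in the double knockout pool and 336.2 in the control pool. Lef1, the other measured gene of the thalamus list, differed by -0.056.

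The spread of the members followed their brightness, as it did over all probe sets. The 12 member probe sets with a mean signal of 1000 and over differed by -0.10 to 0.16. The 8 under 500 differed by -0.75 to 0.34. The median absolute difference was 0.094 for the bright members and 0.30 for the dim ones, against 0.079 and 0.14 over all probe sets in the same ranges. The share past 1.5-fold over all probe sets was 0.393% at 1000 and over and 2.30% under 500. Of the 8 members with 2 or more readable probe sets, 6 had probe sets on both sides of 0, the exceptions being L1cam and Cntn1.

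**Figure D3:**
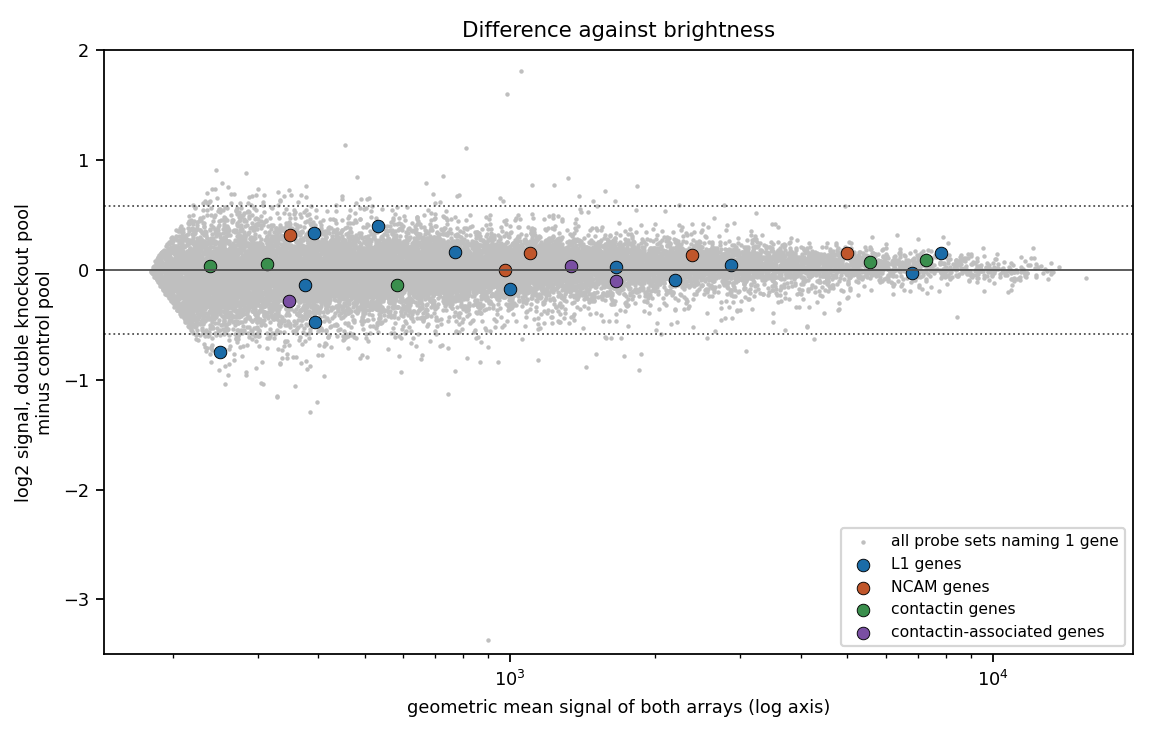
Log2 difference, double knockout pool minus control pool, against the geometric mean signal of both arrays (log axis), for all 18877 readable probe sets naming 1 gene (grey) and the 25 of the members (coloured by family). Dotted lines mark 1.5-fold. The members lie within the grey cloud, close to 0 at the bright end, with 1 Chl1 probe set past the lower line at the dim end.

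By family, the 12 L1 family probe sets had a median of 0.00021, with 6 higher and 6 lower in the double knockout pool. The 5 NCAM probe sets had a median of 0.15 and the 5 contactin probe sets one of 0.057, each with 4 higher and 1 lower. The 3 Cntnap2 probe sets had a median of -0.10. Over all readable probe sets naming 1 gene the median was 0.0031, and 50.9% were higher. Among the higher NCAM probe sets, 3 were the suffixed Ncam1 ones that may read the same stretch. Probe sets of a gene share their RNA and often their transcripts, so these counts are not independent observations.

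The other contactins and contactin-associated genes moved by similarly small amounts. All 6 measured of 9 listed were higher in the double knockout pool, with a median of 0.086, where 52.9% of all measured genes were higher, and 0 of them passed 1.5-fold. Cntn5 read 374.6 in the double knockout pool and 293.7 in the control pool (0.35, 1 probe set). Cntn3 differed by 0.14, averaging 0.069 ± 0.09 (SD, 2 probe sets), Cntn6 by 0.10 and Cntn4 by 0.071. Contactins of this list are known to bind partners such as amyloid precursor protein relatives and Notch at the surface of neurons.

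The cytoplasmic side was flat. Ankyrins and spectrins, to which L1 family tails attach, with linker proteins such as ezrin, had a median of -0.0016 over 12 of 14 genes (0.016 after quantile normalization), 6 higher and 6 lower, and 0 passed 1.5-fold. Ank3, the ankyrin G of the axon initial segment, differed by 0.16 on its brightest probe set, while its probe sets averaged -0.011 ± 0.16 (SD, 6 probe sets). Epb41l3, a paranodal linker protein, differed by -0.12, Sptan1, the alpha spectrin of neurons, by 0.12 and Sptbn4, the beta spectrin of nodes, by -0.11.

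Genes that modify NCAM or relay its signals had a median of 0.047 over 11 of 12 genes, with 7 higher and 4 lower. Both polysialyltransferases, the enzymes that put polysialic acid on NCAM, were higher in the double knockout pool. St8sia2 read 1090.3 in the double knockout pool and 951.0 in the control pool, with a mean of 0.14 ± 0.08 (SD, 2 probe sets). St8sia4 read 1032.6 in the double knockout pool and 906.2 in the control pool (0.18, 1 probe set). The kinase Src differed by -0.24, averaging -0.31 ± 0.10 (SD, 2 probe sets), and Fgfr1, a receptor that NCAM can activate, by 0.30 on its brightest probe set, while its probe sets averaged -0.099 ± 0.35 (SD, 3 probe sets). None of the 11 passed 1.5-fold.

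Extracellular ligands and co-receptors of the group had a median of -0.0048 over 19 of 20 genes, with 9 higher and 10 lower. Nrp2, a semaphorin receptor subunit that joins Nrcam, differed by 0.28, averaging 0.10 ± 0.16 (SD, 3 probe sets), and its ligand Sema3f by 0.25. The proteoglycan Vcan differed by 0.26, averaging 0.10 ± 0.14 (SD, 3 probe sets), and Notch1 by -0.18. The sheddases, proteases that cut these proteins from the cell surface, had a median of 0.032 over 6 of 7 genes, 3 higher and 3 lower. Plat differed by 0.22, Bace1, which cuts Chl1, by 0.098, Adam10, which cuts L1cam, by 0.092 and Psen2 by -0.096, while the Psen2 probe sets averaged 0.25 ± 0.49 (SD, 2 probe sets).

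Other immunoglobulin superfamily adhesion genes had a median of -0.014 over 21 of 22 genes, 10 higher and 11 lower. A single one passed 1.5-fold, the myelin glycoprotein Mag, which read 361.6 in the double knockout pool and 589.5 in the control pool and is counted among the oligodendrocyte markers too. Sdk2, a synaptic recognition molecule, was higher by 0.46, averaging 0.32 ± 0.19 (SD, 2 probe sets), while Thy1 differed by -0.15 and Opcml by 0.15. Channel genes of axonal domains that the group assembles had a median of 0.011 over 8 of 11 genes, or -0.023 after quantile normalization and -0.020 after loess centring, 5 higher and 3 lower, with Kcna2 at -0.14, Kcnab2 at -0.13, Kcnq3 at 0.13 and Kcna1 at -0.10.

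**Figure D4:**
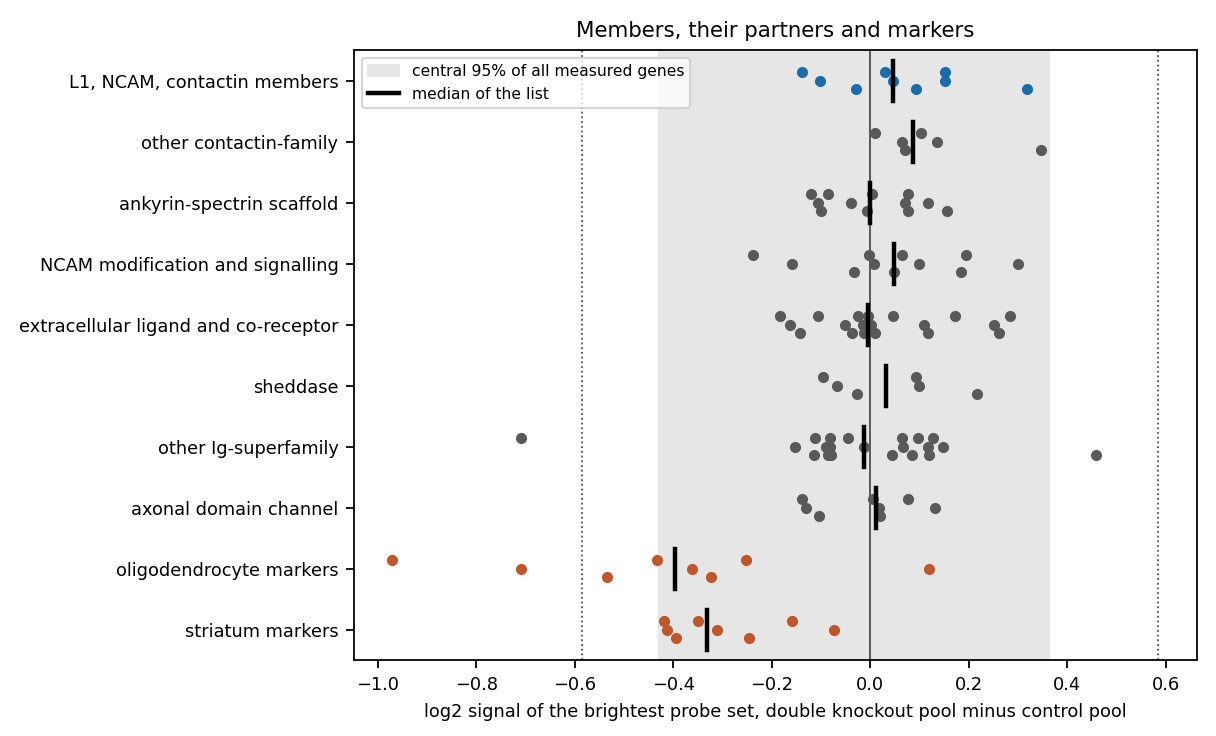
Log2 difference of each gene's brightest probe set, double knockout pool minus control pool, for the 9 measured members, the lists of related genes and the oligodendrocyte and striatum markers. Each point is a gene, black bars are medians, the grey band is the central 95% of all measured genes and dotted lines mark 1.5-fold. The medians of the members and of the lists of related genes lie between -0.014 and 0.086, and those of the oligodendrocyte and striatum markers at -0.40 and -0.33.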

How the data were processed

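Cortical RNA of 3 animals per group was pooled before labelling of 6 ug per array, per the labels' protocols. The deposited values are intensity signals on a linear scale, and the submitters' processing notes name MAS5 as the authors' tool. Its version and target scaling are not stated there. The 2% trimmed mean was 500.002 on both arrays. The number of arrays limits the precision.

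Of 45101 probe sets, 64 controls were set aside, 34945 named 1 gene, 932 several and 9160 none, by the platform annotation. Both arrays were centred at the median log2 difference of probe sets above the 50th percentile of signals, then floored at that percentile. A gene's value came from its measured probe set of highest mean log2 signal. Python 3.11.15, numpy 2.4.6, pandas 2.3.3, statsmodels 0.14.6 and matplotlib 3.10.9 were used, and the steps were tested on simulated data. The simulation changed only probe sets with signals over 1000, by 2-fold, so recovery of smaller changes or of changes in dim probe sets was not tested. The members, the 7 lists of related genes and the 11 marker lists were chosen with earlier results of these data known. Each related list's up to 4 readable genes of largest absolute difference, up to 3 in marker lists, and any gene past 1.5-fold were named. Mog was named outside that rule, after its values were seen. Alternatives were other scalings (none, trimmed mean, quantile, loess of span 0.3), other treatments of dim signals (floors at the 25th and 75th percentiles, an added pseudocount of the floor's size, or none), leaving out suffixed probe sets, and averaging probe sets.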

Additional observations from a re-analysis of the deposited data

How the results depend on the processing

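Of 146 medians and counts recomputed under alternatives, 135 stayed within the tolerance used. For a median this was the pooled SD between probe sets divided by the square root of the number of values. For a count it was 1.5 times. For the member gene median and most list medians the tolerance exceeded the median itself, so a sign change could stay within it. None of the single member values called past 1.5-fold changed sign. The median of the member probe sets stayed between 0.014 and 0.046 under all 9 alternatives that apply to it. With the mean over probe sets, the median of the member genes was -0.035, with 3 members higher and 6 lower. Over all measured genes the median on that measure was -0.0063. The mean over probe sets also took in the Cntn2 probe set under the floor in the double knockout pool alone, which put Cntn2 at -0.15. Under the same alternative Chl1, Nrcam and Nfasc turned to -0.064, -0.0086 and -0.035, and the sheddase median was 0.14. Raising the floor to the 75th percentile left 15 readable member probe sets, 10 higher and 5 lower, with 0 past 1.5-fold. With a pseudocount equal to the floor 0 of 25 passed it, and lowering the floor to the 25th percentile let 2 of 29 pass. Without floor or filter 6 of 34 member probe sets and 1 member gene, Cntnap1, passed 1.5-fold. Of those 6 probe sets, 5 had a signal under the usual floor on at least 1 array. The share over all probe sets or genes was not computed under these alternatives, so the counts are not read as results about the members. Without suffixed probe sets the scaffold median was 0.060 and Ncam1 turned to -0.0056. Nfasc also turned after quantile normalization and loess centring, to -0.0037 and -0.0011. The medians of the scaffold, channel, ligand and other immunoglobulin lists changed sign under some alternatives, all staying between -0.045 and 0.060. No paired analysis was possible because each group is 1 array of pooled RNA. For the same reason no replicate could be left out.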

Other observations

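Some of these genes are neighbours in the genome, by the gene order of the RefSeq table for GRCm38.p6. Chl1, Cntn6 and Cntn4 follow each other on chromosome 6 with 0 protein-coding genes between neighbours, and Cntn2 and Nfasc are likewise next to each other on chromosome 1. The brightest probe sets of Chl1, Cntn6 and Cntn4 were each higher in the double knockout pool than in the control pool, by 0.15, 0.10 and 0.071 log2, although the mean over the Chl1 probe sets was -0.064. Those of Cntn2 and Nfasc differed by -0.14 and 0.030. Cntn6 and Cntn4 had 1 readable probe set each, and 52.9% of all measured genes were higher in the double knockout pool. With 1 array per group these are values of 2 pools and no test was made.

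Several member probe sets gave large ratios at signals too low to carry a fold. Ncam1 probe set 1425126_at, at 70.8 in the double knockout pool and lower still in the control pool, would differ by 2.24 log2 without a floor. Ncam2 probe set 1421592_at read 38.0 in the double knockout pool and 19.5 in the control pool. The brighter Ncam1 probe sets, at 1.10-fold to 1.11-fold higher, show nothing of that size.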
